A study of Mus musculus with 7 samples.

Results

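The glucocorticoid receptor gene Nr3c1 and 8 genes that the receptor is known to induce, Sgk1, Errfi1, Tsc22d3, Pdk4, Fkbp5, Ddit4, Klf9 and Zbtb16, were followed through 7 newborn mouse brains. They were chosen with earlier results of these data known. Each was taken by gene symbol and matched 1 of the 55536 genes in the table of counts. The brains came from C57BL/6 littermates at postnatal day 0 that had received no treatment. Of these, 4 were wild type (2 males and 2 females), and 3 were heterozygous for an allele of Setd2 that carries R2483H within its SRI domain; they are called Setd2SRI/wt (1 male and 2 females). The SETD2 protein places the trimethyl mark on lysine 36 of histone H3, and its SRI domain binds RNA polymerase II. Since litters are not labelled per animal, p-values here describe only the spread among these 7 libraries.

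The glucocorticoid receptor is a transcription factor that rests in the cytoplasm in a complex with HSP90 and its co-chaperones. When corticosterone, the main glucocorticoid of the mouse, binds it, the receptor moves to the nucleus, binds as a dimer to palindromic response elements and raises the transcription of nearby genes. In the perinatal brain glucocorticoids are known for their part in the stress response and in the maturation of neurons and glia. The 8 induced genes include a kinase, signalling inhibitors, a co-chaperone that feeds back on the receptor, and transcription factors.

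The receptor gene itself varied little across the libraries, and the induced genes divided into a set that was lower in the mutants by point estimate and a set with little difference. Sgk1, Ddit4, Tsc22d3, Pdk4 and Errfi1 had mutant means 1.43 to 2.13 times below the wild-type means, while Fkbp5, Klf9 and Zbtb16 had log2 fold changes between -0.15 and -0.030. None of the 9 genes passed the test across all 18269 genes. With edgeR 0 of the 9 had an adjusted p under 0.05, where 3 genes in all, 0.0164% of those tested, were called. At an unadjusted p under 0.05, 5 of the 8 induced genes were lower and 0 higher, where 5.1% of all tested genes were lower and 3.66% higher. DESeq2 called 1 of the 9, Ddit4, and limma-voom 0. With no filter on low counts edgeR called 4 of the 9, Sgk1, Errfi1, Tsc22d3 and Ddit4, and 331 genes in all. All 3 mutant libraries were below all 4 wild-type libraries for 4 of the 8 induced genes, as for 4.06% of all tested genes, and the reverse held for 0 of the 8 against 3.78%. Without the Setd2SRI/wt male the unadjusted count was 2 of 8 in place of 5. In that refit 3.12% of all tested genes were lower, in place of 5.1%.

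Library depth lay between 4192021 and 16064644 counts. The lowest count of any of the 9 genes in any library was 69, for Pdk4 in the Setd2SRI/wt male. Counting error alone gave that value an exact 95% Poisson interval from 22.2% below to 26.6% above it, and every other value a narrower one. Values below are counts scaled to library size (CPM) with TMM factors, and log2 fold changes set Setd2SRI/wt against wild type in a model with genotype and sex. Each SE was obtained from the fold change and its F statistic. None of the 9 genes shares exonic bases with another annotated gene. Setd2 mRNA averaged 103.5 ± 6.72 CPM in the wild-type brains (SD, n = 4) and 96.8 ± 17.9 CPM in the mutant brains (SD, n = 3), and a missense allele need not alter it. Pituitary hormone transcripts were most abundant in 2 libraries. Wild-type female 2 had 79 Gh and 141 Prl counts and Setd2SRI/wt female 1 had 6 and 10, against at most 1 Gh and 6 Prl counts in the others. In brain tissue, fewer cells of a type and less RNA per cell cannot be told apart.

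**Figure D1:**
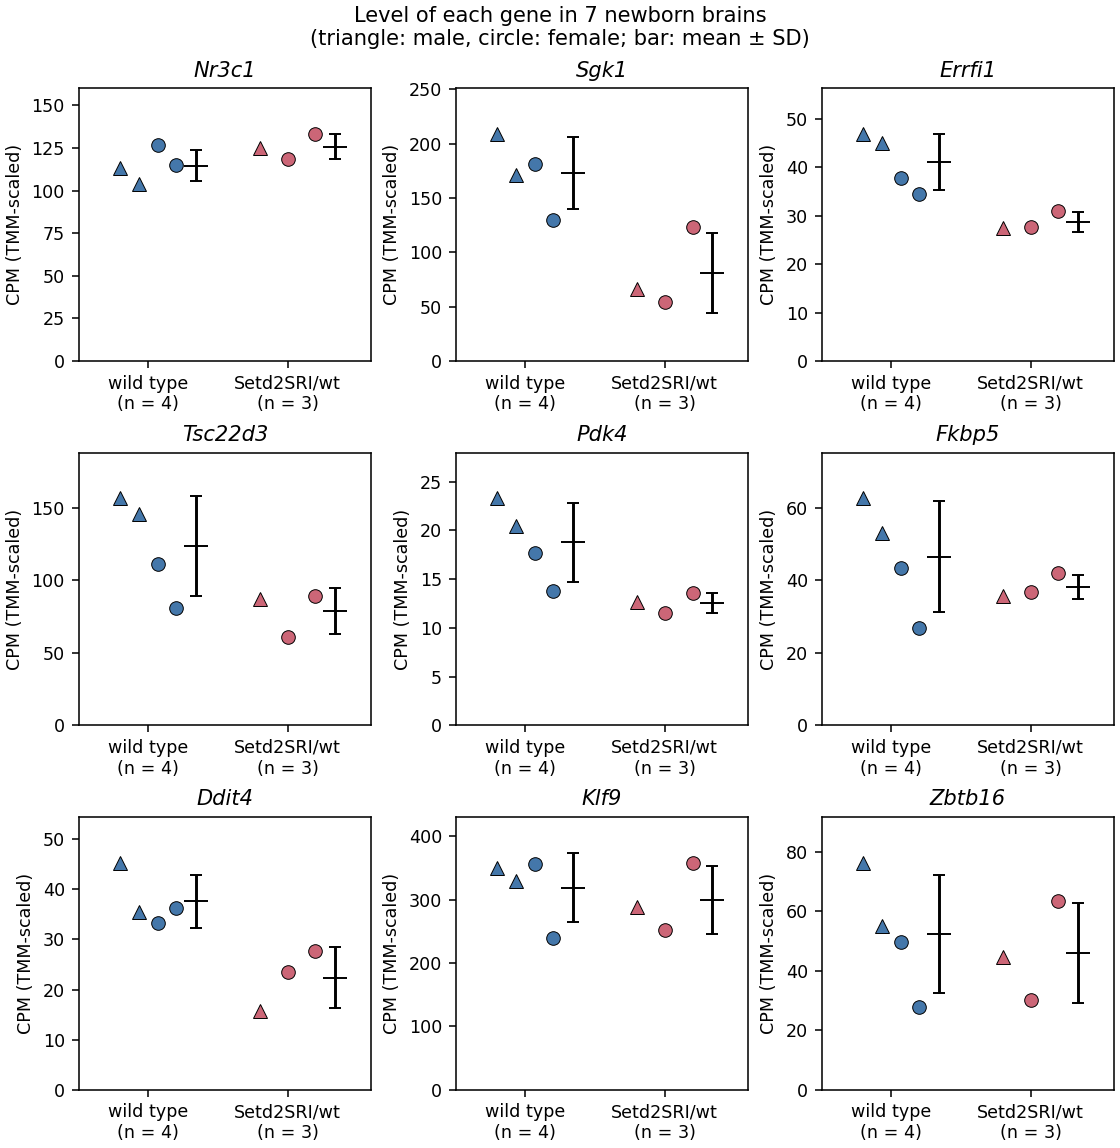
TMM-scaled CPM of the receptor gene and the 8 induced genes in each of the 7 libraries, with triangles for males, circles for females and black bars for the mean ± SD of each genotype. All 3 mutant libraries lie below all 4 wild-type libraries for Sgk1, Errfi1, Pdk4 and Ddit4, and the genotypes overlap for the other 5 genes.

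Nr3c1 (ENSMUSG00000024431, chromosome 18, 39410545 to 39519421, mm10, minus strand) encodes the receptor. Its values were 113 and 104 CPM in wild-type males 1 and 2, 127 and 115 CPM in wild-type females 1 and 2, 125 CPM in the Setd2SRI/wt male and 119 and 133 CPM in Setd2SRI/wt females 1 and 2. The genotypes overlapped, and the highest library was 1.28 times the lowest, the narrowest span among the 9 genes. Its fitted log2 fold change was 0.12 ± 0.10 (SE, adjusted p = 0.83 in edgeR).

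The levels of the 9 genes spanned more than an order of magnitude when set per kb of annotated exon. In wild type Klf9 was highest at 66.2 ± 11.3 CPM per kb (SD, n = 4), and its lowest library was above the highest Sgk1 library. Sgk1 followed at 35.3 ± 6.69, Tsc22d3 at 28.5 ± 7.96 and Ddit4 at 21.4 ± 3.04 CPM per kb, and neighbours among these 3 overlapped in their library values. Nr3c1 at 14.9 ± 1.21 CPM per kb lay below every Ddit4 value and above every Errfi1 value, which averaged 11.5 ± 1.63. Zbtb16 at 9.90 ± 3.76, Pdk4 at 5.35 ± 1.15 and Fkbp5 at 4.91 ± 1.61 CPM per kb closed the order, each overlapping its neighbours. In the mutants Klf9 again stood first at 62.2 ± 11.2 CPM per kb (SD, n = 3), and Sgk1 at 16.6 ± 7.54 was close to Tsc22d3 at 18.2 ± 3.62 and to Nr3c1 at 16.4 ± 0.950.

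Sgk1 (ENSMUSG00000019970, chromosome 10, 21882184 to 21999903, mm10, plus strand) encodes the serum- and glucocorticoid-regulated kinase, which acts on ion channels, transporters and FOXO factors. It is the gene for which the sequence is shown first, because 1 of its 6 start-site windows held a complete palindrome of the receptor's response element. The windows are from RefSeq (GRCm38.p6) and run from 250 bases before an annotated start to 50 bases after it. Searched on both strands were the half-site AGAACA, which reads TGTTCT on the other strand, and 2 palindromes built from a first arm, 3 bases of any kind and the reverse complement of that arm. The full palindrome had AGAACA as its arm, and the looser one had GNACA. Capitals mark the matches, and half-sites inside the palindrome overlap it.
Sgk1, chr10:21993640-21993939, plus strand: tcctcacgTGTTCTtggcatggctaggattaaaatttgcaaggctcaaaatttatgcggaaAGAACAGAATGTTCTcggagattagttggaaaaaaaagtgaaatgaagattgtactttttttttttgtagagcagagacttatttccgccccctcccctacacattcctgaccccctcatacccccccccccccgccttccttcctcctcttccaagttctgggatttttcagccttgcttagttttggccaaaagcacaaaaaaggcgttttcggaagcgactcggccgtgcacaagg
The palindrome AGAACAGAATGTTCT lies at chr10:21993701-21993715, its first base 189 bases before the start site of this window and 965 bases before the last annotated Sgk1 start, and a further half-site stands 242 bases before the start site. The full palindrome was found in 3 of 32851 windows of all genes, a share of 0.00913%, the looser one in 0.475% and the half-site in 19.0%. Such a match is a string of letters, and whether the receptor bound there was not measured.

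Sgk1 had the largest difference of the 9 genes. It stood at 209 and 172 CPM in wild-type males 1 and 2 and at 182 and 130 CPM in wild-type females 1 and 2. In the mutants it was at 65.8 CPM in the male, 54.4 CPM in female 1 and 123 CPM in female 2. The male and female 1 of the mutants were below all wild-type libraries by a wide margin, and mutant female 2 lay just below wild-type female 2. The means were 173 ± 32.8 CPM (SD, n = 4) and 81.2 ± 37.0 CPM (SD, n = 3), 2.13-fold apart. Its fitted log2 fold change was -1.06 ± 0.22 (SE, adjusted p = 0.125 in edgeR), which ranked 29th by p among all tested genes. Leaving out a library gave log2 fold changes from -1.53, without Setd2SRI/wt female 2, to -0.79, without the Setd2SRI/wt male. With no filter on low counts Sgk1 was called by edgeR, as it was without Setd2SRI/wt female 2 (adjusted p = 4.96e-04) and without both libraries with pituitary transcripts (adjusted p = 0.0258). Over all alternatives the adjusted p of Sgk1 ran from 1.17e-15 to 0.892.

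Ddit4 (ENSMUSG00000020108, chromosome 10, 59949669 to 59951834, mm10, minus strand) encodes a stress-induced inhibitor of the growth kinase complex mTORC1. Its values were 45.4 and 35.4 CPM in wild-type males 1 and 2 and 33.3 and 36.4 CPM in wild-type females 1 and 2. The Setd2SRI/wt male was lowest at 15.7 CPM, and Setd2SRI/wt females 1 and 2 had 23.6 and 27.7 CPM. All mutant libraries were below all wild-type ones. The means were 37.6 ± 5.33 CPM (SD, n = 4) and 22.3 ± 6.10 CPM (SD, n = 3), which gave a log2 fold change estimate of -0.74 ± 0.17 (SE, adjusted p = 0.159 in edgeR). It was called by DESeq2 (adjusted p = 0.0247) and by edgeR without wild-type female 1 (adjusted p = 0.0399), and its adjusted p ran from 4.55e-05 to 1.00 over all alternatives. Without the Setd2SRI/wt male the log2 fold change was -0.43. The single start-site window of Ddit4 held none of the 3 motifs.

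Tsc22d3 (ENSMUSG00000031431, chromosome X, 140539528 to 140600659, mm10, minus strand) encodes the glucocorticoid-induced leucine zipper protein GILZ, which restrains inflammatory transcription factors. It had 157 and 146 CPM in wild-type males 1 and 2, 111 and 80.7 CPM in wild-type females 1 and 2, 86.9 CPM in the Setd2SRI/wt male, and 60.9 and 89.4 CPM in Setd2SRI/wt females 1 and 2. Both wild-type males and wild-type female 1 were above every mutant library, and wild-type female 2 lay among the mutants. The log2 fold change was -0.52 ± 0.15 (SE, adjusted p = 0.243 in edgeR), and the Tsc22d3 estimate was -0.34 without the Setd2SRI/wt male. Of its 3 start-site windows, the farthest upstream held 1 half-site, 185 bases before the start, and it is shown for comparison with the Sgk1 window.
Tsc22d3, chrX:140600473-140600772, minus strand: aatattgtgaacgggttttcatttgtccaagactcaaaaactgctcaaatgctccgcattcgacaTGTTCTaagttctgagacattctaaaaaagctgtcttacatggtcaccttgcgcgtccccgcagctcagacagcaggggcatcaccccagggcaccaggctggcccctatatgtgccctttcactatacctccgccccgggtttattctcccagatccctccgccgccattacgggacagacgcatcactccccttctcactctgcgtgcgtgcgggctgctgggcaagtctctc

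Errfi1 (ENSMUSG00000028967, chromosome 4, 150853919 to 150868892, mm10, plus strand) encodes a feedback inhibitor of the EGF receptor. Its 3 mutant libraries were close together, at 27.4 CPM in the male and 27.6 and 31.0 CPM in females 1 and 2. The wild-type libraries had 46.9 and 44.9 CPM in males 1 and 2 and 37.8 and 34.5 CPM in females 1 and 2. The groups did not overlap, and the log2 fold change was -0.46 ± 0.12 (SE, adjusted p = 0.202 in edgeR). For Errfi1 it was -0.30 without the Setd2SRI/wt male.

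Pdk4 (ENSMUSG00000019577, chromosome 6, 5483351 to 5496309, mm10, minus strand) encodes a kinase that shuts off pyruvate dehydrogenase and so spares glucose. It had 23.3 and 20.4 CPM in wild-type males 1 and 2 and 17.6 and 13.8 CPM in wild-type females 1 and 2. The mutants had 12.6 CPM in the male and 11.5 and 13.6 CPM in females 1 and 2, so the gap between wild-type female 2 and Setd2SRI/wt female 2 was small although the groups did not overlap. The log2 fold change was -0.49 ± 0.16 (SE, adjusted p = 0.357 in edgeR), and the Pdk4 estimate was -0.31 without the Setd2SRI/wt male. Errfi1 and Pdk4 had 2 and 1 start-site windows, and none held a match to the 3 motifs.

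Fkbp5, Klf9 and Zbtb16 overlapped between the genotypes. Fkbp5 (ENSMUSG00000024222, chromosome 17, 28399094 to 28517527, mm10, minus strand) encodes the co-chaperone that lowers the receptor's affinity for its hormone and is itself induced by it. It had 62.6 and 53.0 CPM in wild-type males 1 and 2, 43.5 and 26.8 CPM in wild-type females 1 and 2, 35.7 CPM in the Setd2SRI/wt male, and 36.8 and 42.0 CPM in Setd2SRI/wt females 1 and 2. The wild-type libraries thus spanned a wider range than the mutants and reached both above and below them. The log2 fold change was -0.15 ± 0.18 (SE, adjusted p = 0.892 in edgeR), and it was 0.17 without the Setd2SRI/wt male.

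Klf9 (ENSMUSG00000033863, chromosome 19, 23141226 to 23168134, mm10, plus strand) encodes a zinc finger transcription factor that responds to glucocorticoid and thyroid hormone. It had 351 and 329 CPM in wild-type males 1 and 2, 357 and 239.6 CPM in wild-type females 1 and 2, 288 CPM in the Setd2SRI/wt male, and 252 and 359 CPM in Setd2SRI/wt females 1 and 2. The lowest and the highest library were both females, of different genotype. The log2 fold change was -0.071 ± 0.15 (SE, adjusted p = 0.946 in edgeR), and it was positive once the Setd2SRI/wt male or either female numbered 1 was left out.

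Zbtb16 (ENSMUSG00000066687, chromosome 9, 48654297 to 48836222, mm10, minus strand) encodes the transcriptional repressor PLZF. It had 76.3 and 55.1 CPM in wild-type males 1 and 2, 49.8 and 27.9 CPM in wild-type females 1 and 2, 44.4 CPM in the Setd2SRI/wt male, and 30.0 and 63.4 CPM in Setd2SRI/wt females 1 and 2. Its coefficient of variation was 38.0% in wild type, the widest of the 9 genes there, and 36.4% in the mutants, where Sgk1 was wider at 45.5%. The log2 fold change was -0.030 ± 0.25 (SE, adjusted p = 0.988 in edgeR), and it was positive when wild-type male 1, the Setd2SRI/wt male or either female numbered 1 was left out. The start-site windows of Fkbp5 and Klf9 held no match to the 3 motifs. Windows were used for 7 of the 9 genes, and Nr3c1 and Zbtb16 were not searched. Sequence outside these windows was not searched for any gene, so a window without a match leaves the rest of its gene unread.

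**Figure D2:**
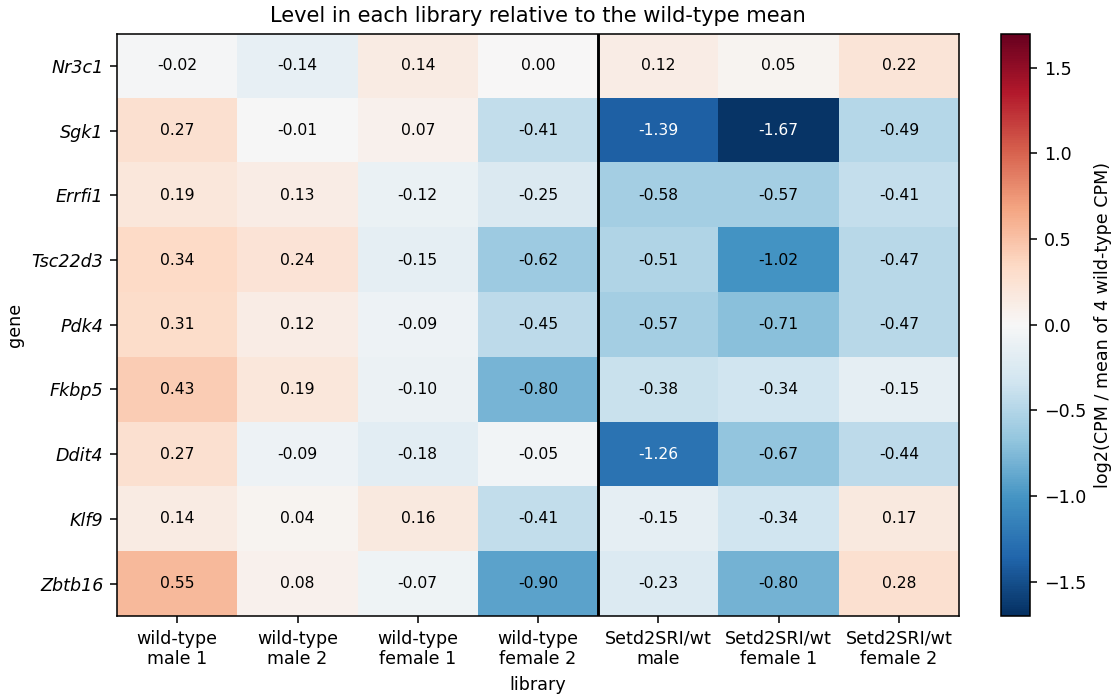
Log2 of each library's CPM over the mean of the 4 wild-type libraries, genes in rows and libraries in columns, with the black line between wild type and mutants. Wild-type male 1 has the highest values for 7 of the 8 induced genes, and the Nr3c1 row stays between 0.907 and 1.16 times the wild-type mean.

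Seen by library, the highest and lowest values fell in a few brains. Wild-type male 1 had the highest value for 7 of the 8 induced genes, and Setd2SRI/wt female 2 had the highest for the remaining gene, Klf9. Wild-type female 2 had the lowest value for 3 genes (Fkbp5, Klf9 and Zbtb16), Setd2SRI/wt female 1 for 3 (Sgk1, Tsc22d3 and Pdk4) and the Setd2SRI/wt male for 2 (Errfi1 and Ddit4). Within the wild-type females, female 1 was above female 2 for 7 of the 8 genes, against 48.9% of all tested genes. Within the mutant females, female 2 was above female 1 for 8 of 8, against 50.9%. The median of the 8 genes, as log2 CPM centred on each gene's mean over the 7 libraries, was 0.60 and 0.35 in wild-type males 1 and 2, 0.16 and -0.24 in wild-type females 1 and 2, -0.26 in the Setd2SRI/wt male, and -0.39 and -0.040 in Setd2SRI/wt females 1 and 2. On this scale wild-type female 2 was below Setd2SRI/wt female 2.

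Counts of an induced gene per count of Nr3c1 in the same library need no scaling between libraries. By this ratio, 5 of the 8 genes were lower in all mutant than in all wild-type libraries, namely Sgk1, Errfi1, Tsc22d3, Pdk4 and Ddit4. The same held for 9.38% of all other tested genes, against 4.06% in CPM, and the divisor Nr3c1 itself averaged 115 CPM for wild type and 126 CPM for mutants. The ratio for Sgk1 was 1.51 ± 0.307 (SD, n = 4) in wild type and 0.636 ± 0.252 (SD, n = 3) in the mutants. For Tsc22d3 it lay between 0.702 and 1.40 in wild type and between 0.513 and 0.695 in the mutants, so the groups that overlapped in CPM did not overlap here. For Fkbp5 it lay between 0.233 and 0.553 in wild type and between 0.286 and 0.315 in the mutants.

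The second question was whether the genes differed with sex, since only 1 mutant brain was male. Male values were higher by point estimate for 7 of the 8 induced genes in the model with both terms, where 49.2% of all tested genes had a positive estimate. Both wild-type males lay above both wild-type females for 5 of them, Errfi1, Tsc22d3, Pdk4, Fkbp5 and Zbtb16, as for 16.6% of all tested genes. In the mutants the male was above both females for 0 of 8, against 31.6% of all tested genes. The male over female log2 fold changes were 0.49 ± 0.15 (SE) for Tsc22d3, 0.46 ± 0.24 for Zbtb16, 0.42 ± 0.18 for Fkbp5, 0.33 ± 0.16 for Pdk4 and 0.19 ± 0.12 for Errfi1. With edgeR 0 of the 9 genes passed for sex, where 8 genes in all, 0.0438% of those tested, were called, and the adjusted p of Tsc22d3 was 0.796. At an unadjusted p under 0.05 there were 2 of the 9, Tsc22d3 and Fkbp5, against 4.73% of all genes. DESeq2 and limma-voom called 0 of the 9 as well. With no filter on low counts, edgeR called Tsc22d3 for sex (adjusted p = 0.025).

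The male genotype difference lay below the female one by point estimate for all 8 induced genes, as for 50.5% of all tested genes. For Fkbp5, Klf9 and Zbtb16 the genotype estimate in females only was positive. The Setd2SRI/wt male was below both wild-type males for 8 of 8, as for 37% of all tested genes. Both mutant females were below both wild-type females for 4 of 8, Sgk1, Errfi1, Pdk4 and Ddit4, as for 14.9% of all tested genes. In the model with a product of genotype and sex, the male genotype difference minus the female one was -0.95 ± 0.29 (SE) on the log2 scale for Ddit4, -0.88 ± 0.33 for Fkbp5, -0.88 ± 0.48 for Zbtb16 and -0.74 ± 0.43 for Sgk1. With edgeR 0 of the 9 genes, and 0% of all genes, passed for this product (adjusted p = 0.998 for each of the 9), and 2 of the 9, Ddit4 and Fkbp5, had an unadjusted p under 0.05, against 3.46% of all genes. DESeq2 and limma-voom also called 0 of the 9. All of these values rest on 1 mutant male, and that animal and its sex cannot be told apart.

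**Figure D3:**
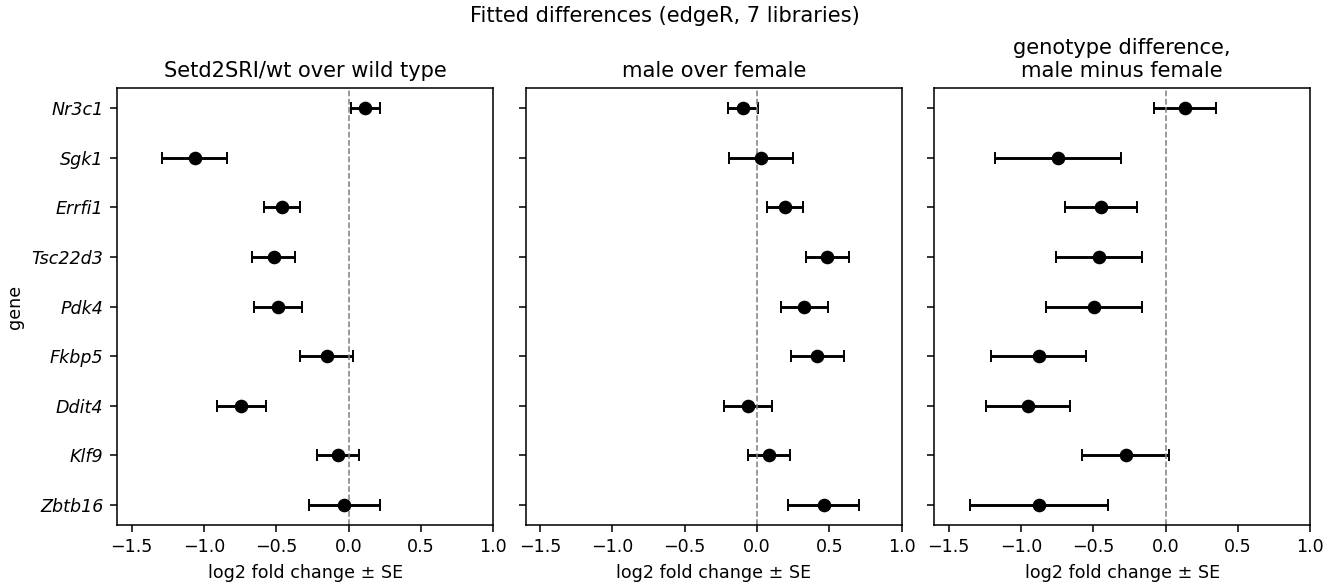
Fitted log2 fold changes with their SE for the 9 genes, for genotype (left), sex (middle) and the male minus female genotype difference (right). The genotype estimates run from -1.06 for Sgk1 to 0.12 for Nr3c1, and the right panel lies below 0 for all 8 induced genes.

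**Figure D4:**
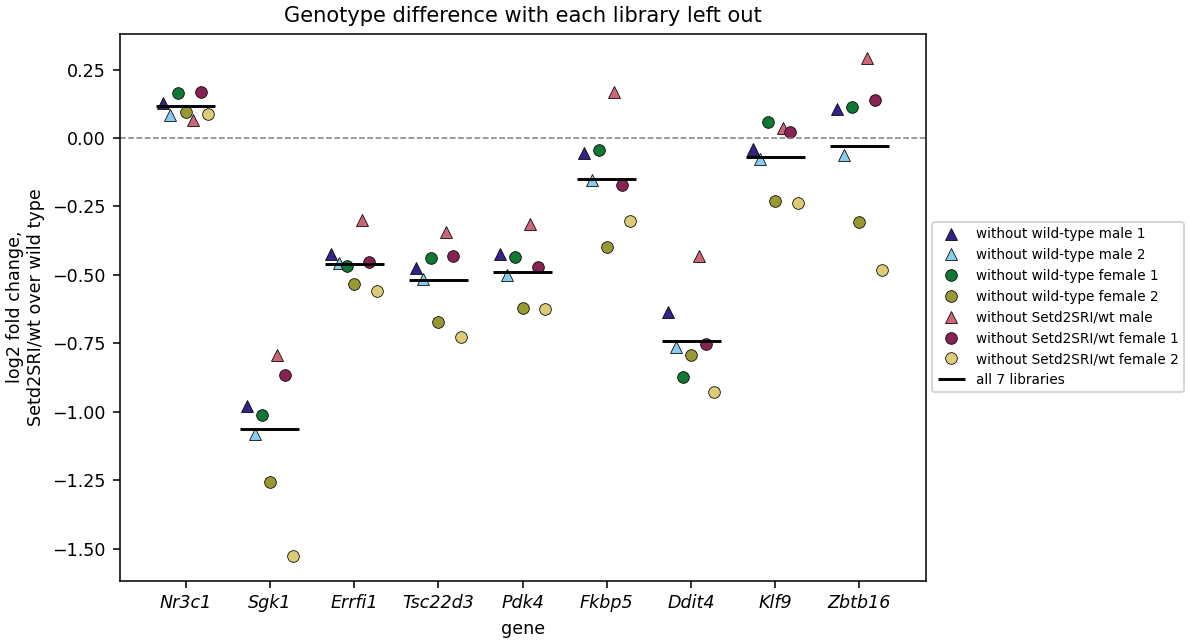
Genotype log2 fold change of each gene with each library left out in turn (symbols) and with all 7 libraries (black lines). Sgk1, Errfi1, Tsc22d3, Pdk4 and Ddit4 stay below 0 in all 7 refits, while Fkbp5, Klf9 and Zbtb16 cross 0.

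Most other genes known to be induced by glucocorticoids also had lower point estimates in the mutants. Of a list of 24, all tested, 19 had a negative and 5 a positive log2 fold change, with a median of -0.32, where 48.8% of all tested genes were negative and their median was 0.0058. Without the Setd2SRI/wt male the median of the 24 was -0.21, and that of the receptor and its 8 induced genes was -0.30 in place of -0.46. All mutant libraries were below all wild-type ones for 5 of the 24, as for 4.06% of all tested genes. With edgeR 0 of the 24 passed. At an unadjusted p under 0.05, 8 were lower and 0 higher, where 5.1% of all tested genes were lower and 3.66% higher. The 4 of smallest p were Plekhf1, Arrdc2, Irs2 and Klf15. Plekhf1, an endosomal adaptor protein, had 9.05 and 6.18 CPM in wild-type males 1 and 2, 7.44 and 5.76 CPM in wild-type females 1 and 2, 2.38 CPM in the Setd2SRI/wt male and 1.38 and 3.56 CPM in Setd2SRI/wt females 1 and 2. Its order of libraries was that of Sgk1 among the mutants, and its log2 fold change was -1.43 ± 0.28 (SE, adjusted p = 0.109 in edgeR). Arrdc2, an arrestin-domain protein, had an estimate of -0.72 ± 0.17 (SE, adjusted p = 0.16 in edgeR), with means of 19.8 ± 5.07 and 11.6 ± 1.69 CPM. Irs2, an adaptor of the insulin receptor, had 85.8 ± 11.2 and 63.5 ± 4.99 CPM, and Klf15, a transcription factor of fasting metabolism, had 29.4 ± 4.26 and 21.1 ± 0.701 CPM. Irs2 shares exonic bases with an antisense gene, so its count is uncertain. The same holds for Abcb1a, Nr3c2, Junb, Slc2a1, Bnip3, Ankrd37, Ndrg1 and Nedd4l, which are named below. Ep300, also below, shares exonic bases with a gene on its own strand.

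The proteins that hold or assist the receptor had smaller differences by point estimate. Of 13 chaperones and co-chaperones 10 were negative with a median of -0.058, and log2 fold changes lay between -0.25 and 0.039. The 4 of smallest p were Stip1, Fkbp4, Hsp90aa1 and Dnajb1, at -0.19, -0.18, -0.16 and -0.14. Of 11 coregulators, the coactivators and corepressors that the receptor recruits, 8 were negative with a median of -0.078, and Ep300, Med14 and Ncoa2 had log2 fold changes of -0.19, -0.16 and -0.10. Of all tested genes 48.8% were negative. In both lists edgeR called 0 genes, 0 had an unadjusted p under 0.05 and 0 separated the genotypes.

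Genes of corticosteroid supply and signalling were slightly higher by point estimate, with a median of 0.15 over the 10 tested of 12. The median of all tested genes was 0.0058. The binding globulin gene Serpina6 had no count in any library and Hsd11b2, which inactivates corticosterone, had at most 6 counts, so neither was tested. Hsd11b1, the enzyme that regenerates active corticosterone, had 14.6 and 13.3 CPM in wild-type males 1 and 2 and 11.01 and 15.4 CPM in wild-type females 1 and 2. It was at 24.3 CPM in the Setd2SRI/wt male and at 15.5 and 18.5 CPM in Setd2SRI/wt females 1 and 2. The mutants were all above wild type, but female 1 and the highest wild-type library, female 2, were nearly level, at 15.47 and 15.44 CPM. For Hsd11b1 the log2 fold change was 0.53 ± 0.16 (SE, adjusted p = 0.283 in edgeR). Abcb1a, the drug and steroid efflux pump of brain vessels, had an estimate of -0.29 ± 0.13 (SE, adjusted p = 0.522 in edgeR). The CRH receptor gene Crhr1 and the mineralocorticoid receptor gene Nr3c2 had log2 fold changes of 0.22 and 0.16. With edgeR 0 of the 10 passed, and at an unadjusted p under 0.05 Hsd11b1 was higher and Abcb1a lower. Of all tested genes 3.66% were higher and 5.1% lower at that threshold.

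**Figure D5:**
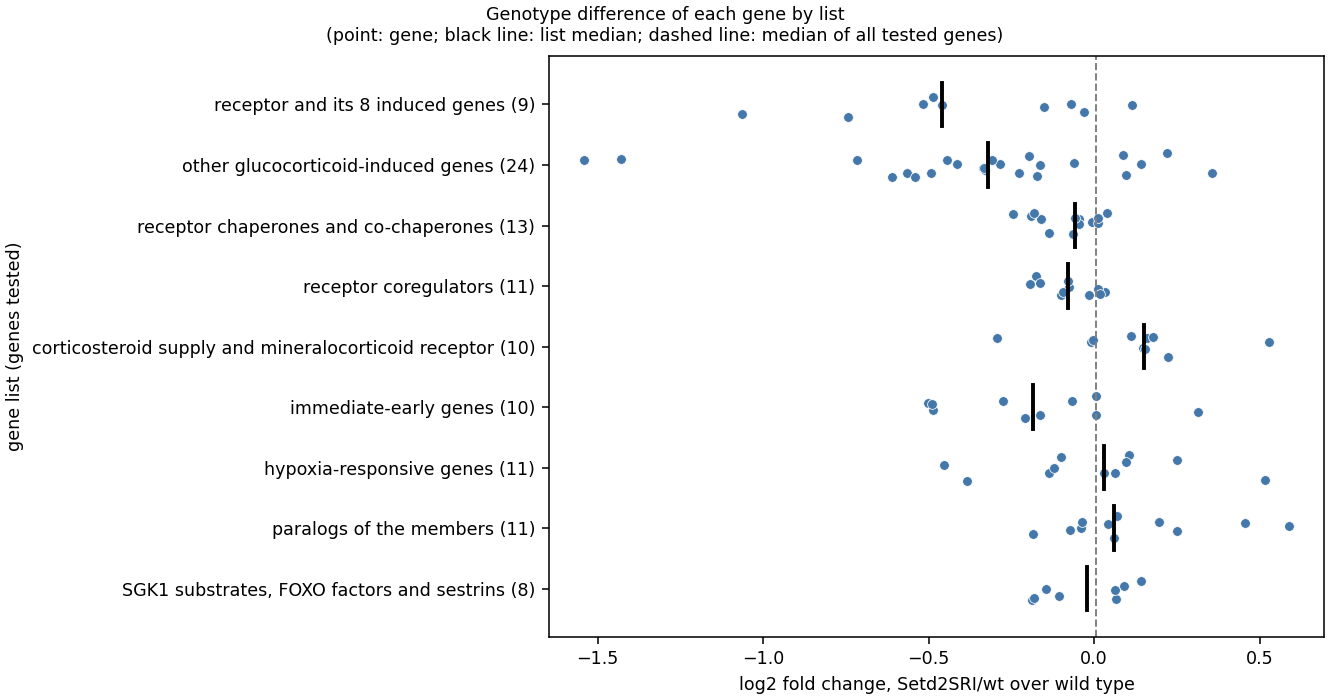
Log2 fold change of each tested gene by list (points), with the list median (black line) and the median of all tested genes (dashed line). The list medians are -0.46 for the receptor and its 8 induced genes and -0.32 for the other induced genes, and lie between -0.19 and 0.15 for the other 7 lists.

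Lists of other stimuli that reach some of the same genes were set beside them. Of 10 immediate-early genes 7 were negative, where 48.8% of all tested genes were. Their median was -0.19, with 0 at an unadjusted p under 0.05. The median was 0.028 without both libraries with pituitary transcripts and ran from -0.50 to 0.14 with each library left out. In the Setd2SRI/wt male Junb, Fos and Arc were at 20.3, 12.6 and 48.8 CPM, the lowest of all libraries. The same library was lowest for only 2 of the 8 induced genes, Ddit4 and Errfi1. Errfi1 was nearly level there with Setd2SRI/wt female 1, at 27.4 and 27.6 CPM. Npas4, the fourth immediate-early gene named, had a log2 fold change of 0.31. Of 11 hypoxia-responsive genes 5 were negative, with a median of 0.030. Among them the glucose transporter gene Slc2a1 had an estimate of -0.38 ± 0.11 (SE, adjusted p = 0.214 in edgeR), and Pdk1, Ankrd37 and Bnip3 were at 0.25, 0.52 and -0.14. With edgeR 0 genes of either list passed.

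Close relatives of the members were read in the same way. Of 11 paralogs 7 were positive, with a median of 0.060, where 48.8% of all tested genes were negative. Ddit4l, the paralog of Ddit4, had 16.9 and 13.3 CPM in wild-type males 1 and 2, 18.3 and 12.9 CPM in wild-type females 1 and 2, 26.7 CPM in the Setd2SRI/wt male and 20.4 and 22.8 CPM in Setd2SRI/wt females 1 and 2. All mutants were above all wild-type libraries, and the log2 fold change was 0.59 ± 0.16 (SE, adjusted p = 0.19 in edgeR), opposite in sign to that of Ddit4. Pdk1, the paralog of Pdk4, was also higher in all mutant libraries, and so was Zbtb32, whose count was only 2 in wild-type male 2. Such a separation held for 3 of the 11 paralogs and for 3.78% of all tested genes. Tsc22d2 and Zbtb32 had log2 fold changes of -0.19 and 0.46. Of 8 SGK1 substrates, FOXO factors and sestrins 4 were negative, with a median of -0.022, and Sesn3, Ndrg1, Nedd4l and Ndrg2 had log2 fold changes of -0.18, -0.19, 0.14 and -0.11. With edgeR 0 genes of these lists passed, and Ddit4l and Pdk1 had an unadjusted p under 0.05. Both were higher, where 3.66% of all tested genes were higher and 5.1% lower at that threshold.

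The genes with the library pattern nearest to each induced gene were sought by the root mean square difference of centred log2 CPM over the 7 libraries, among 12098 other genes of at least 5 CPM on average. This was done for the 6 genes whose log2 CPM spanned 1 or more. For Sgk1, which spanned 1.94, the nearest were Gm26945, Plekhf1 and Fign, at differences of 0.21, 0.24 and 0.29. For Tsc22d3 they were Map3k6, Pdk4 and Tnfrsf25 at 0.12, 0.14 and 0.17, and for Pdk4 they were Errfi1, Rhpn2 and Pnpla2 at 0.0959, 0.115 and 0.119. Ddit4 was nearest to Klf2, Echdc1 and Arl4d at 0.12, 0.14 and 0.15. Fkbp5 had Gm34583, Serinc2 and Cdkn1a at 0.11, 0.14 and 0.16, and Zbtb16 had Gm34583, Serinc2 and Mybpc1 at 0.17, 0.22 and 0.23. Of these 16 genes, Pdk4 and Errfi1 were themselves among the 8 and Plekhf1, Map3k6 and Cdkn1a stood in the list of 24 other induced genes. The points share the 7 libraries and their genotypes, and Cdkn1a, Echdc1, Rhpn2, Mybpc1 and Gm26945 share exonic bases with other genes.

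Markers of cell types and regions were read in the same libraries as summed CPM of the total count. The sums overlapped between the genotypes for 8 of 11 lists, those of vessels, astrocytes, oligodendrocyte lineage, microglia, choroid plexus, red blood cells, meninges and pituitary. The 10 endothelial and pericyte markers summed to 283 to 349 in wild type and 280 to 400 in the mutants, for example. The sums of 3 neuronal lists did not. The 6 markers of cortical excitatory neurons summed to 742 to 988 in wild type and 1055 to 1090 in the mutants. The 6 of inhibitory neurons summed to 882 to 1009 and 791 to 854, and the 7 of subcortical and hindbrain neurons to 217 to 265 and 98.9 to 144. Singly, all mutant libraries were above all wild-type ones for 4 of the 6 cortical markers, against 3.78% of all tested genes. All were below for 0 of the 6 inhibitory and 2 of the 7 subcortical and hindbrain markers, against 4.06%. The 7 choroid plexus markers summed to 195 in wild-type male 1, the library with the highest induced genes, and to 587 to 936 in the other 6. That library was also the only one with a count for all 7 subcortical and hindbrain markers. Among these, wild-type values were uneven for Hoxb5, at 1.99 ± 3.99 CPM (SD, n = 4) and at most 127 counts. For Slc6a5 they were 14.1 ± 19.4 CPM (SD, n = 4). The part of the neuronal and choroid plexus differences in the values of the 8 induced genes was not tested. Leaving out both libraries with pituitary transcripts was a choice made after seeing the data. In that refit 6 of the 8 induced genes were lower at an unadjusted p under 0.05, against 5.66% of all tested genes. The median log2 fold change of the 9 genes was then -0.52.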

How the data were processed

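RNA was measured by RNA-seq in 7 brains, 1 library each, with a stranded total RNA kit per the labels' protocols. The authors deposited raw counts per gene, whole numbers with no normalization. The submitters' processing notes name FastQC, Trim Galore, HISAT2, featureCounts and edgeR and the build mm10, and their versions and the strand setting of the counting are not given in the sources used here. All 55536 identifiers and symbols matched GENCODE mouse release 21, from which exon lengths were taken. The mutant male's column is named S-M1 where its label reads S-M, and it was matched as the only male of that genotype.

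Counts were filtered with edgeR's filterByExpr on the genotype and sex groups, scaled by TMM and fitted with edgeR 4.0.16 (quasi-likelihood F-test, Benjamini-Hochberg adjustment over 18269 genes, threshold 0.05) in R 4.3.3, with genotype and sex as terms. A second model added their product. The SE of an estimate was its size over the root of F. DESeq2 1.42.0, limma 3.58.1 and other scalings, filters and subsets of libraries were alternatives. Centred log2 CPM used a prior count of 2. The fit was tested on simulated data. Replicate pairs differed by more than counting noise (chi-square per degree of freedom 2.85 to 14.0), so each library counted once.

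The 9 genes and the lists were chosen with earlier results of these data known. All 9 genes are named, with the 4 list genes of smallest p in each pathway list and the 3 nearest genes in library pattern. A gene that this rule also names is not reported here. Poisson intervals cover counting error only. Promoter windows were those of RefSeq for GRCm38.p6.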

Additional observations from a re-analysis of the deposited data

How the results depend on the processing

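No alternative moved the log2 fold change of Nr3c1, Sgk1, Errfi1, Tsc22d3, Pdk4 or Ddit4 across 0, and the cause of the changes below was not tested. Against 3 genes called for genotype in all, total-count scaling, a minimum mean of 1 CPM and limma-voom each gave 1, DESeq2 size factors 4, DESeq2's Wald test 65, no filter 331, the removal of both libraries with pituitary transcripts 62 (chosen after seeing the data), and leaving out 1 library 0 (without wild-type female 2) to 116 (without wild-type female 1). Of the 9 genes 0 were called, against 4 with no filter, 1 with DESeq2, 1 without both libraries with pituitary transcripts and 0 to 1 with 1 library left out. With 1 library left out, 5 to 8 of the 8 induced genes were negative and 2 to 6 were lower at an unadjusted p under 0.05. In the same refits 3.12% to 6.15% of all tested genes were lower at that threshold. The genotypes did not overlap for 4 to 6 of the 8 with 1 library left out, and for 6 without both libraries with pituitary transcripts. Fewer libraries separate more easily, and the share of all genes that did so in these subsets was not computed. With 1 library left out, the genotype log2 fold change ran from -0.40 to 0.17 for Fkbp5, -0.24 to 0.059 for Klf9 and -0.48 to 0.29 for Zbtb16. The sex log2 fold change ran from -0.16 to 0.29 for Sgk1, -0.31 to 0.24 for Ddit4 and -0.071 to 0.22 for Klf9. Genes called for sex numbered 8, against 136 with no filter, 15 in wild type only and 8 to 24 with 1 library left out. In wild type only the sex log2 fold change of Ddit4 was 0.24.

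Only the females had 2 numbered libraries in both genotypes, and the deviations of same-numbered females correlated at -0.0512, so the numbers were not taken as pairs. In females only, 1 gene was called without the replicate block and 80 with it, of which 1 of the 9 (Sgk1, log2 fold change -0.89). In both fits 5 of the 8 induced genes were negative and 2 were lower at an unadjusted p under 0.05. Of all tested genes, 2.67% were lower at that threshold without the block and 2.96% with it. Without and with the block the log2 fold change was 0.17 and 0.21 for Fkbp5, 0.037 and 0.043 for Klf9 and 0.29 and 0.26 for Zbtb16. With 1 mutant male, genotype differences in males have no replicate.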
